A study of Sus scrofa with 15 samples.

Results

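Blood microRNAs (miRNAs) of sexually mature pigs at 180 days of age were compared with those of piglets on the day of birth (day 0). The libraries were chosen by their age label, 3 at each age, so that 6 of the 15 libraries of the series enter the comparison directly. All came from peripheral whole blood of domestic pigs. The labels name no breed, sex or treatment, and they do not say whether an animal was sampled at more than 1 age or whether several animals were pooled. The 3 libraries of an age are called biological replicates in the series' design.

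Mature miRNAs are short RNAs that guide Argonaute proteins to partly complementary messenger RNAs and lower their output. A hairpin precursor is cut by Dicer into a 5p and a 3p arm, of which 1 is usually kept in excess. In whole blood, red cells and reticulocytes contribute much of the miRNA, such as miR-451 and miR-486. Leukocytes and platelets contribute miRNAs such as miR-142, miR-150, miR-155 and miR-126. Blood changes around birth as oxygen supply rises, fetal erythropoiesis ends and the immune system meets microbes. The let-7 family is held back in fetal blood progenitors by LIN28B, which blocks its maturation.

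The table held 293 different miRNAs, and the 6 libraries had between 5771711 and 9843805 counts. A level is given as normalised CPM, each count relative to the library total after scaling by the TMM factor, which assumes most miRNAs to be unchanged. These factors were between 1.10 and 1.71 at day 0 and between 0.761 and 0.816 at day 180. A miRNA was tested if it passed the low-count filter, which kept 215 and left 78 untested. A change was called at an adjusted p under 0.05 (edgeR quasi-likelihood test, Benjamini-Hochberg over the 215), and ± after a log2 fold change is its standard error (SE, n = 3 per age). Because nothing says how the animals were sampled, p-values measure only the spread between these libraries. Newborn replicate 3 stood apart: its median absolute log2 difference from newborn replicates 1 and 2 was 1.72 and 1.56, beside 0.35 between those 2 and 0.416 to 0.595 between the libraries of day 180. Results are therefore given with and without it.

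Of the 215 tested miRNAs, 48 (22.3%) differed between birth and day 180. At day 180, 16 (7.44%) were higher and 32 (14.9%) were lower, and each of the 48 differed by at least 2-fold. The libraries of both ages did not overlap for 41 of the 48, beside 65 (30.2%) of all tested miRNAs. Without newborn replicate 3, 104 of 231 tested miRNAs (45%) were called, 40 higher (17.3%) and 64 lower (27.7%). All 48 calls were among these 104, in the same direction. The median log2 fold change over all tested miRNAs was -0.31, and scaling moved it. With library totals in place of TMM factors it was -1.12, and 5 miRNAs were called higher and 69 lower, so that all 32 falls were called under both scalings but only 5 of the 16 rises, namely let-7i, let-7f, miR-29a, miR-10a-5p and miR-218-5p.

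**Figure D1:**
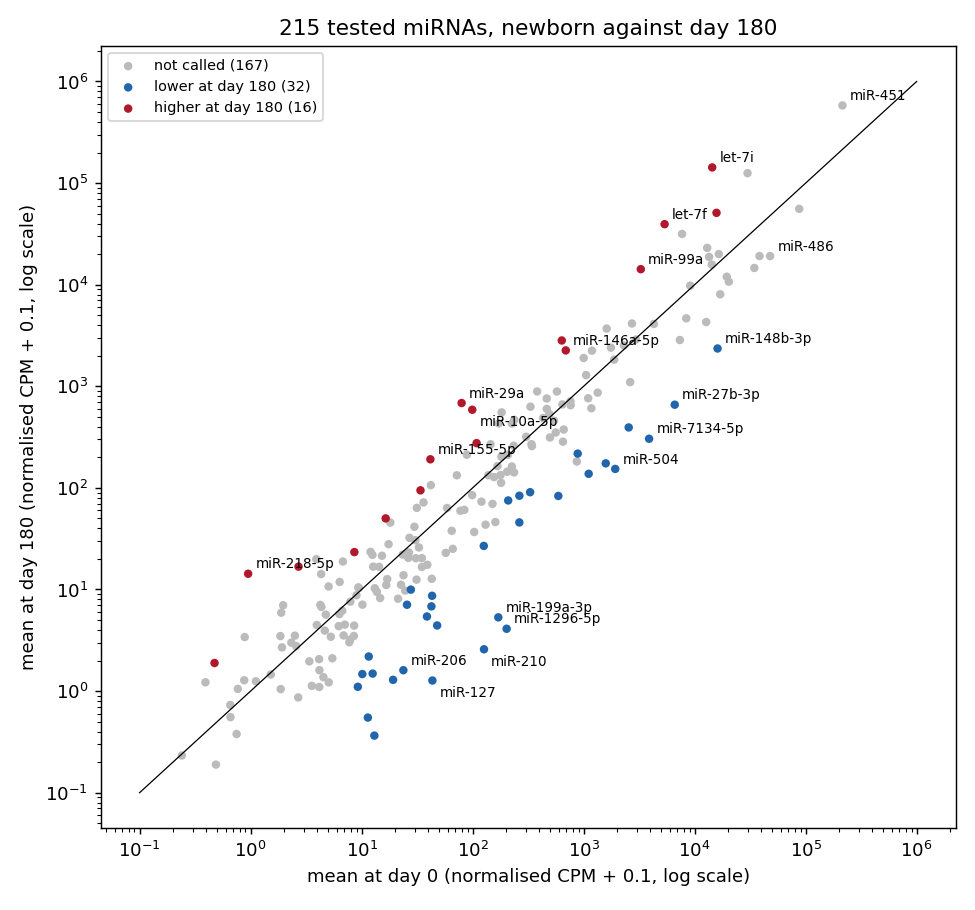
Mean level at day 180 (vertical axis) against day 0 (horizontal axis) for the 215 tested miRNAs, in normalised CPM plus 0.1 on log scales. Each point is 1 miRNA, coloured by its edgeR call, and the line marks equal levels. The 16 called rises lie above the line and the 32 called falls below it, with miR-210, miR-1296-5p and miR-199a-3p far below.

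The let-7 family rose in part. Of its 9 tested members, 4 rose, none fell and 5 did not pass, with a median log2 fold change of 1.33 beside -0.31 over all tested miRNAs. let-7i measured 12436, 8843 and 21924 normalised CPM in the newborns and 161485, 134115 and 132359 at day 180. All 3 day 180 libraries lay far above all newborn libraries, a 9.91-fold rise (log2 fold change 3.31 ± 0.54, edgeR adjusted p = 0.000493). As a share of counts, let-7i went from 1.76%, 1.51% and 2.42% to 13.2%, 10.2% and 10.1%. let-7f was at 2835, 2345 and 10916 normalised CPM at birth and at 44069, 36931 and 37236 at day 180 (2.88 ± 0.55, edgeR adjusted p = 0.00117). Newborn replicate 3 lay nearest to day 180 for both, and without it the log2 fold change of let-7f was 3.91. let-7d-5p rose from 841, 595 and 470 to 2215, 2160 and 4097 normalised CPM (2.15 ± 0.39, edgeR adjusted p = 0.000982).

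let-7g rose from 10887, 9256 and 27088 to 47474, 43209 and 62246 normalised CPM (1.70 ± 0.46, edgeR adjusted p = 0.0125). Its call was lost without newborn replicate 1 (log2 fold change 1.504, adjusted p = 0.0532), newborn replicate 2 (1.43, 0.0784) or day 180 replicate 3 (1.47, 0.0538), and without newborn replicate 3 it was 2.32. The members that did not pass were let-7a (0.83 ± 0.39), let-7c (-0.04 ± 0.48), let-7e (-0.36 ± 0.55), let-7d-3p (0.71 ± 0.53) and miR-98 (1.33 ± 0.59). Family members differ by few bases and may share reads. miR-98 was also called higher without newborn replicate 3 (2.42, adjusted p = 0.00128), which brought the family to 5 rises and no fall.

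Of the other rises with a mean of at least 50 normalised CPM at either age, miR-29a had the lowest p. miR-29a represses collagens and DNA methyltransferases. It was at 70.0, 80.1 and 88.6 normalised CPM at birth and at 543, 654 and 856 at day 180, an 8.60-fold rise (3.10 ± 0.42, edgeR adjusted p = 9.94e-05). The newborn libraries agreed closely here, replicate 3 included, and lay well below day 180. All 3 tested members of the miR-29 family had a positive log2 fold change and 2 were called. The second, miR-29b, was at 1.09, 0.709 and 6.01 normalised CPM at birth and at 10.02, 15.0 and 25.1 at day 180 (2.67 ± 0.89, edgeR adjusted p = 0.0404). Its log2 fold change was 4.17 without newborn replicate 3, where all 3 members of the family were called higher. The call of miR-29b was lost without newborn replicate 1 (2.32, adjusted p = 0.137), newborn replicate 2 (2.23, 0.164), day 180 replicate 2 (2.96, 0.0551) or day 180 replicate 3 (2.17, 0.117).

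Both arms of miR-10a, a hairpin encoded between HOX genes, rose. miR-10a-5p measured 91.2, 104 and 102 normalised CPM in the newborns and 741, 706 and 316 at day 180 (2.57 ± 0.49, edgeR adjusted p = 0.00117). The newborn libraries were tight, the day 180 libraries spread more with replicate 3 lowest, and the groups did not overlap. miR-10a-3p had 3, 4 and 4 counts at birth and 19, 14 and 7 at day 180 (edgeR adjusted p = 0.0166), a level near that of 3 counts at birth. Its call was lost without newborn replicate 1 (adjusted p = 0.0736), newborn replicate 2 (0.0716) or day 180 replicate 1 (0.0652). Of the 4 tested members of the HOX loci list, these 2 rose, and the median was 1.17. Without newborn replicate 3, 5 members were tested, the same arms rose, miR-615, untested with all libraries, was called lower (-2.24, adjusted p = 0.0479) and the median was -0.24. miR-615 passed the filter only once that library was dropped, with at most 12 counts in any of the 6 libraries. Neither its call nor its part in that median is further support. miR-10b, the paralogue from another HOX cluster, did not pass (-0.79 ± 0.43).

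miR-99a, which shares its transcript with let-7c, was at 3266, 3189 and 3372 normalised CPM at birth and at 19708, 16073 and 6857 at day 180 (2.12 ± 0.45, edgeR adjusted p = 0.00217). The newborn libraries differed by little and all lay below day 180. It was the only 1 of 5 tested members of the miR-99/100 and miR-125 families to be called with all libraries, and the median of that list was -0.36, close to the -0.31 of all tested miRNAs. Without newborn replicate 3, miR-125a was called lower (-1.33, adjusted p = 0.0435) and the median was -0.67.

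Regulators of inflammation were among the rises. Of 6 tested members of the innate immune response list, 3 rose and none fell, beside 16 (7.44%) higher of all 215 tested miRNAs. The median log2 fold change was 1.34, beside -0.31 over all tested miRNAs. miR-146a-5p, which targets TRAF6 and IRAK1 and so dampens Toll-like receptor signalling, was at 631, 503 and 937 normalised CPM at birth and at 2418, 2360 and 1989 at day 180. That is a 3.27-fold rise with no overlap (1.71 ± 0.36, edgeR adjusted p = 0.00217). miR-155-5p, which activation raises in B cells, T cells and macrophages, was at 58.2, 43.7 and 22.8 normalised CPM at birth and at 205, 229 and 139 at day 180 (2.20 ± 0.45, edgeR adjusted p = 0.00183). Newborn replicate 3 was the lowest library for miR-155-5p, as it was for let-7d-5p, and so the newborn farthest from day 180. miR-9, which targets NFKB1, rose from 20.8, 21.7 and 59.0 to 104, 81.8 and 97.7 normalised CPM (1.48 ± 0.48, edgeR adjusted p = 0.0361). Its log2 fold change was 2.13 without newborn replicate 3, and the call was lost without newborn replicate 1 (1.24, adjusted p = 0.136), newborn replicate 2 (1.25, 0.164), day 180 replicate 1 (1.59, 0.0652) or day 180 replicate 3 (1.40, 0.0744). miR-21, which is induced by STAT3, did not pass (1.20 ± 0.77) but did without newborn replicate 3 (3.10, adjusted p = 0.0012). With library totals the log2 fold changes of miR-146a-5p, miR-155-5p and miR-9 were 0.92, 1.30 and 0.75. Their edgeR adjusted p-values were 0.112, 0.0819 and 0.253, so none of the 3 calls held under that scaling.

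The eleventh rise of at least 50 normalised CPM was miR-361-5p, from 122, 70.8 and 132 to 270, 318 and 240 (1.35 ± 0.38, edgeR adjusted p = 0.0154), with no call without newborn replicate 2 (1.13, adjusted p = 0.0914). Among the 5 rises below that level, miR-218-5p, encoded in introns of SLIT genes, had the largest log2 fold change of all. Chosen for its values, it measured 0.984, 0.405 and 1.16 normalised CPM in the newborns and 13.1, 6.54 and 23.0 later (4.04 ± 0.75, edgeR adjusted p = 0.00113, or 4.65 without day 180 replicate 2). miR-24-1-5p, from the miR-23a/27a/24 cluster of myeloid cells, rose from 12.03, 14.1 and 23.1 to 77.0, 57.1 and 15.8 (1.61 ± 0.55, edgeR adjusted p = 0.0462). Its groups overlapped, since day 180 replicate 3 lay below newborn replicate 3. The call was lost without newborn replicate 1 (adjusted p = 0.142), newborn replicate 2 (0.161), day 180 replicate 1 (0.198) or day 180 replicate 2 (0.109).

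**Figure D2:**
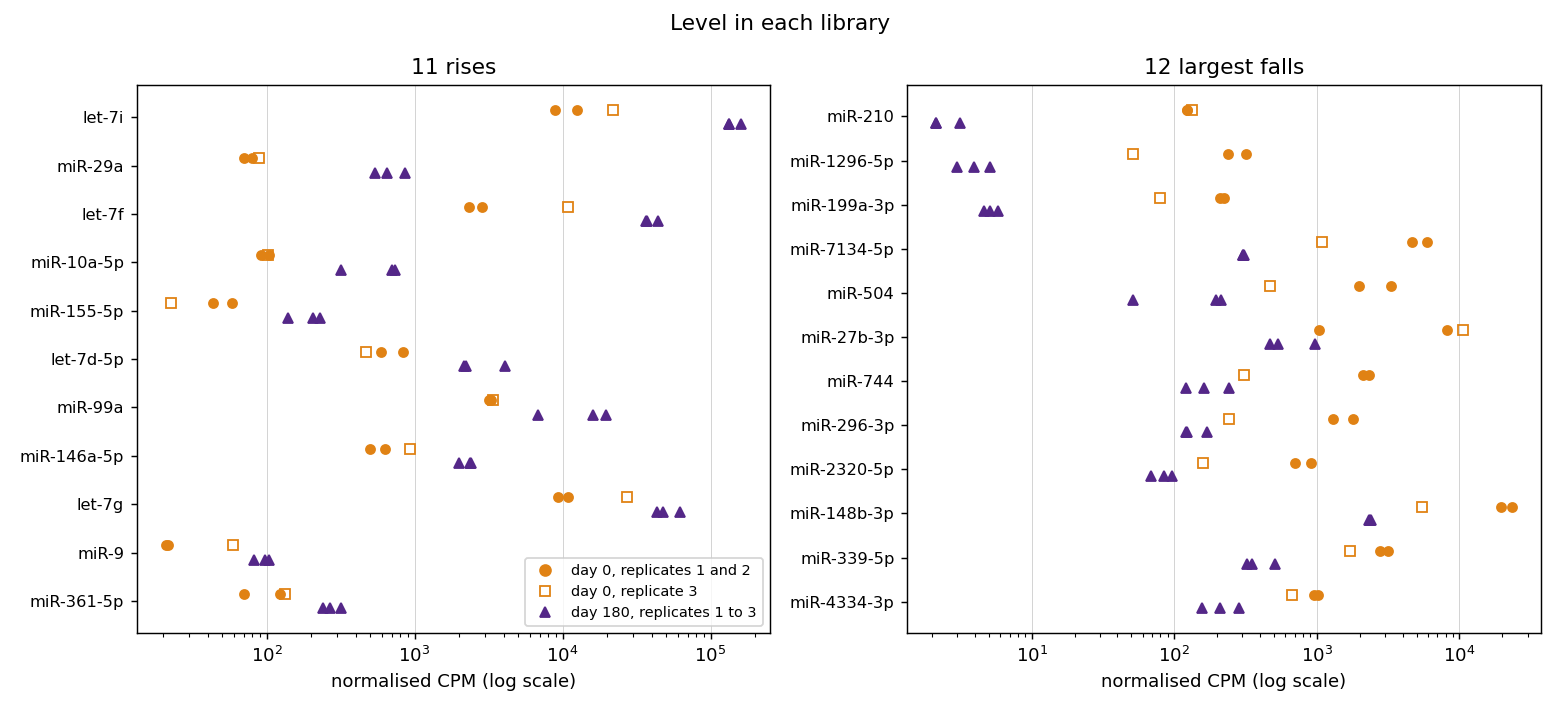
Normalised CPM (horizontal log axis) in each of the 6 libraries for the 11 rises and the 12 largest falls with a mean of at least 50 at either age and no overlap. Circles are newborn replicates 1 and 2, open squares newborn replicate 3 and triangles the day 180 libraries. miR-210 is nearly equal in the 3 newborns at 122 to 134, while newborn replicate 3 of miR-7134-5p, at 1086, lies between the other newborns and day 180.

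miR-210, a direct target of the hypoxia-inducible factor, showed one of the deepest falls. Its newborn levels were 122, 123 and 134 normalised CPM, against 3.16, 2.14 and 2.14 at day 180, a 50.7-fold decrease (-5.66 ± 0.71, edgeR adjusted p = 6.18e-05). The 3 newborns were nearly equal, and leaving out newborn replicate 3 gave -5.64, where miR-1296-5p was at -6.12. miR-1296-5p, encoded in an intron of JMJD1C, was at 319, 237 and 51.4 at birth and at 3.96, 5.07 and 2.996 at day 180 (-5.65 ± 0.74, edgeR adjusted p = 7.01e-05). Newborn replicate 3 had the lowest newborn level, still about an order of magnitude above day 180.

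Of the 5 tested miRNAs of mesenchymal and smooth muscle cells, 4 fell and none rose, beside 32 (14.9%) lower of all 215 tested miRNAs. The median log2 fold change was -3.17, beside -0.31 over all tested miRNAs. The 3 falls of miR-214 and of both miR-199a arms share 1 transcript, so they are not independent of each other. Summed over the 7 listed miRNAs in the table, the level was 313, 346 and 148 normalised CPM at birth and 24.3, 19.8 and 32.2 at day 180. Most of the summed level at birth was that of miR-199a-3p, so the sum does not stand for the list as a whole. In whole blood, fewer cells of a type and less RNA per cell cannot be told apart. miR-199a-3p, also abundant in platelets, was at 208, 223 and 79.6 normalised CPM at birth and at 5.14, 4.67 and 5.85 at day 180 (-5.02 ± 0.63, edgeR adjusted p = 6.18e-05). Its reads cannot be separated from those of the identical miR-199b-3p. The other arm, miR-199a-5p, was at 9.30, 9.92 and 8.24 and then at 0.923, 0.801 and 1.28 (-3.17 ± 0.59, edgeR adjusted p = 0.00113). miR-214, processed from the same transcript as miR-199a, was at 62.7, 49.0 and 4.46 at birth and at 6.20, 3.07 and 6.70 at day 180 (-2.86 ± 0.74, edgeR adjusted p = 0.00874). Here newborn replicate 3 was within the range of day 180, and the call was lost without day 180 replicate 1 (-2.61, adjusted p = 0.0708) or replicate 2 (-2.28, 0.0964). miR-145-5p, a marker of smooth muscle, went from 17.6, 34.4 and 5.33 to 0.659, 1.20 and 1.71 (-3.99 ± 0.88, edgeR adjusted p = 0.00279, and -3.24 without newborn replicate 2), and miR-143-3p, from the same cluster, did not pass (-1.33 ± 0.55).

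Of the skeletal and heart muscle list, 2 of 4 tested members fell and none rose. miR-133a-3p had 141, 50 and 189 counts at birth and 4, 2 and 0 at day 180 (-5.51 ± 0.97, edgeR adjusted p = 0.000847, and -6.28 without day 180 replicate 1). It reached 10 counts in 3 newborn libraries and in only 1 later library, of day 360. miR-133a-3p thus passed the filter through the newborns, where it was high. miR-206, specific to skeletal muscle, had 212, 47 and 445 counts at birth and 25, 7 and 2 at day 180 (-3.96 ± 0.99, edgeR adjusted p = 0.00745). For both, newborn replicate 3 was the highest library and newborn replicate 2 the lowest newborn. The fall of miR-206 was -3.19 without newborn replicate 3 and -5.12 without day 180 replicate 1, and its call was lost without day 180 replicate 2 (-3.67, adjusted p = 0.0523). The heart muscle miRNA miR-499-5p did not pass (1.02 ± 0.63), and was called higher without newborn replicate 3 (2.44, adjusted p = 0.00112). The level of this list summed to 59.2, 21.9 and 139 normalised CPM at birth and 75.3, 86.5 and 38.7 at day 180, so that the groups overlapped.

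The imprinted DLK1-DIO3 locus encodes a large miRNA cluster that is expressed in the embryo and placenta. Of its 13 miRNAs in the table only miR-127 passed the filter. It had 663, 442 and 132 counts at birth and 5, 0 and 20 at day 180 (-5.20 ± 1.07, edgeR adjusted p = 0.00183). The log2 fold change was -4.59 when newborn replicate 1 was left out. It was -4.47, -4.22 and -6.89 when day 180 replicate 1, 2 or 3 was. The 12 untested members together had 456 counts at birth, 416 of them in newborn replicates 1 and 2, and 7 at day 180. Of these 12, 9 had a higher summed count at birth than at day 180. Most of the 456 counts were those of miR-370, picked once its values were known. miR-370 had 160, 90 and 7 counts at birth and no count at day 180. Against a floor of 3 counts over the day 180 group, its mean was at least 67.0-fold lower. Without newborn replicate 3 more of these members became testable because they were high in the other 2 newborns, so their calls there are no further support.

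Of the 32 falls, 21 belonged to no list. miR-7134-5p was at 5916, 4663 and 1086 normalised CPM at birth and at 301, 305 and 308 at day 180 (-3.67 ± 0.55, edgeR adjusted p = 0.000235). miR-504, encoded in an intron of FGF13, was at 3335, 1974 and 472 and then at 214, 196 and 51.1 (-3.65 ± 0.69, edgeR adjusted p = 0.00115, and -2.97 without newborn replicate 1). miR-148b-3p was the most abundant miRNA to fall, from 19585, 23237 and 5443 to 2349, 2331 and 2388 (-2.77 ± 0.52, edgeR adjusted p = 0.00113). It was the only 1 of 5 tested members of the family of miR-148 and miR-152 called with all libraries, and without newborn replicate 3 miR-148a-3p (3.72) and miR-152 (1.57) were called higher beside it. In miR-7134-5p, miR-504 and miR-148b-3p the newborn replicate 3 level was the lowest of its age, yet above all of day 180. The remaining largest falls were miR-744 (-3.18 ± 0.62), miR-296-3p from the imprinted GNAS locus (-3.01 ± 0.62), miR-2320-5p (-2.83 ± 0.59), miR-339-5p (-2.69 ± 0.46) and miR-4334-3p (-2.02 ± 0.43). Each had no overlap between the ages, at edgeR adjusted p between 0.000785 and 0.00215, and newborn replicate 3 was the lowest newborn library for each.

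For miR-27b-3p newborn replicate 1, not replicate 3, was the newborn library nearest to day 180. It was at 1034, 8188 and 10640 normalised CPM at birth and at 532, 469 and 977 at day 180 (-3.33 ± 0.94, edgeR adjusted p = 0.0157). The lowest newborn and the highest day 180 library nearly met, and the call was lost without day 180 replicate 1 (-3.003, adjusted p = 0.109) or replicate 2 (-2.96, 0.110). Its cluster neighbours miR-23b (-2.26 ± 0.92) and miR-24-3p (-0.95 ± 0.61) did not pass.

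Of the miR-30 family 1 of 10 tested members fell and 8 of 10 had a negative log2 fold change, with a median of -1.04. The called member was the minor arm miR-30c-3p, from 13.6, 18.8 and 5.04 to 0.659, 0.934 and 2.57 normalised CPM (-3.16 ± 0.71, edgeR adjusted p = 0.00324). The call was lost without day 180 replicate 1 (-2.51, adjusted p = 0.0645) or replicate 2 (-2.61, 0.0634), and the value was -3.92 without day 180 replicate 3. Without newborn replicate 3, 4 members fell and 1 rose.

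The blood cell lists held few calls with all libraries. None of the 6 erythroid members was called. miR-451, processed by AGO2 without Dicer in red-cell precursors, was at 52808, 52420.1 and 538674 normalised CPM at birth and at 453614, 646540.5 and 644168 at day 180. Newborn replicate 3 lay within the range of day 180, and the change did not pass (1.44 ± 0.75, edgeR adjusted p = 0.183). Without that library miR-451 (3.45 ± 0.49, adjusted p = 6.69e-05) and its cluster partner miR-144 (3.78 ± 0.79, adjusted p = 0.0012) were called higher and miR-486 lower (-1.78 ± 0.42, adjusted p = 0.00276). In the lymphoid list miR-155-5p rose and 8 of 9 members did not pass. miR-150, the most specific marker of mature lymphocytes, was at 2017, 1022 and 529.6 at birth and 3345, 1656 and 1723 at day 180, with overlapping groups (0.91 ± 0.46). miR-181a, which sets the sensitivity of the T-cell receptor, was at 21350, 15208 and 1583 at birth and 5290, 4032 and 3551 at day 180. Newborn replicate 3 was below day 180 while the others were far above, and the change passed without it (-2.10 ± 0.38, adjusted p = 0.000502) but not with it (-1.57 ± 0.64, 0.0948). With library totals and all libraries, miR-181a was called lower (-2.52, adjusted p = 0.0144).

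In the platelet list both arms of miR-199a fell and 8 of 10 members did not pass, among them miR-126-3p (-0.03 ± 0.45), miR-191 (0.10 ± 0.37) and miR-221-3p (0.04 ± 0.36). The median was 0.07, and without newborn replicate 3 miR-126-5p was also called, higher (1.69, adjusted p = 0.0151). In the myeloid list miR-24-1-5p rose and 6 of 7 members did not pass, with a median of -0.24. Leaving out newborn replicate 3 gave 3 higher calls and a median of -0.04. The haematopoietic miR-142-5p was at 25.2, 36.4 and 486 normalised CPM at birth and at 546, 569 and 545 at day 180, again with newborn replicate 3 near day 180 (1.60 ± 0.79 with it, 4.14 ± 0.47 without it, adjusted p = 0.155 and 1.25e-05). The miR-17/92 cluster and its paralogues (13 tested) held no call with all libraries. Without newborn replicate 3, 4 rose (miR-17-5p, miR-19a, miR-19b and miR-20a) and miR-92a fell (-1.18, adjusted p = 0.0197). miR-92a was at 138982, 109501 and 14140 at birth and 36658, 42560 and 88131 at day 180 (-0.65 ± 0.61). The miR-15/16 family (3 tested), the liver list (3), the brain list (2) and miR-26a with miR-101 held no call with all libraries. Among their members were miR-15b (-0.85 ± 0.45), miR-192 (0.11 ± 0.68), miR-7 (2.03 ± 0.85) and miR-26a (0.14 ± 0.34). Each of these lists held 1 call without newborn replicate 3, namely miR-15b lower (-1.27, adjusted p = 0.0045) and miR-215 (4.37, 0.00548), miR-7 (3.94, 0.000894) and miR-101 (3.23, 0.000317) higher. No member of the epithelial or pancreas list passed the filter with all libraries. Without newborn replicate 3, 1 epithelial member passed it and was called lower (-2.82). That member was tested only in the smaller fit, so its call is no further support.

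**Figure D3:**
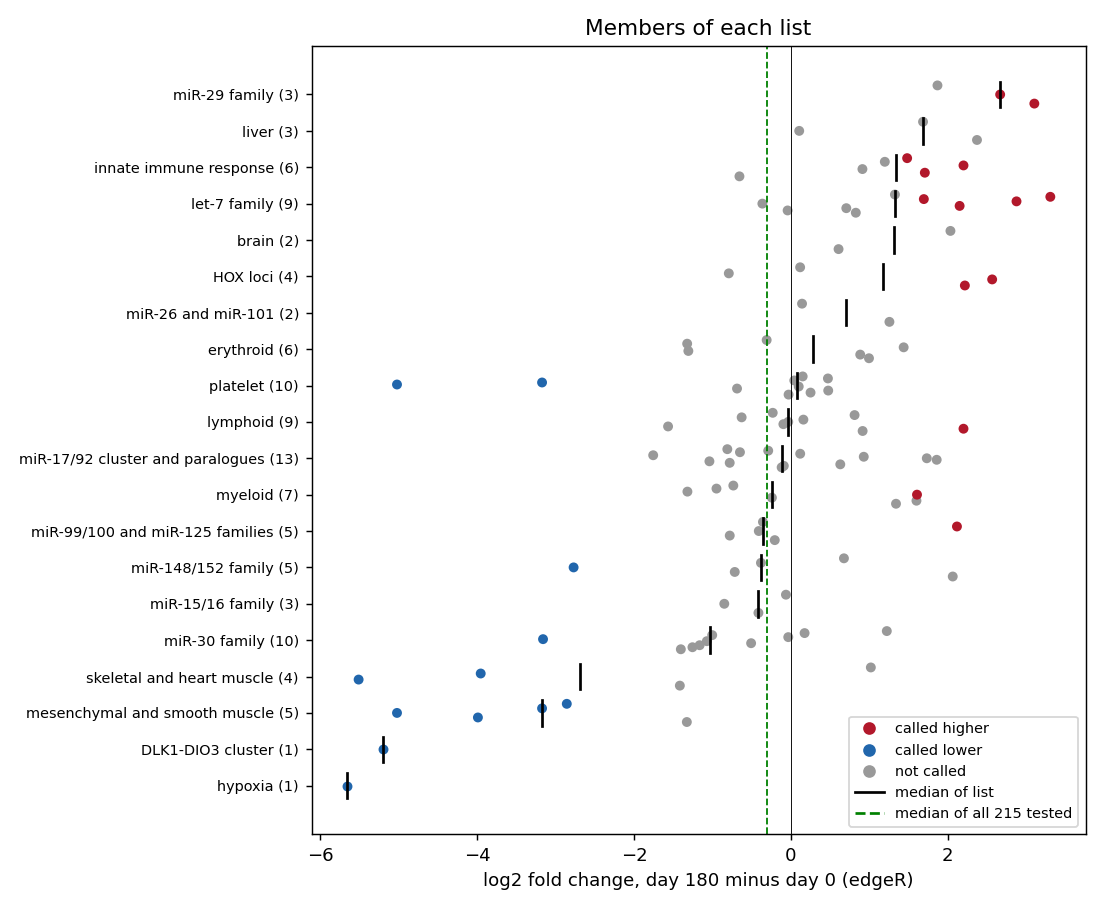
Log2 fold change from day 0 to day 180 (horizontal axis) of the tested members of each list, 1 row per list with the number tested in parentheses. Points are miRNAs coloured by call, black bars are list medians and the dashed line is the median of all 215 tested miRNAs, -0.31. The mesenchymal and smooth muscle list has 4 called falls and the let-7 family 4 called rises.

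The effect of newborn replicate 3 was described for all tested miRNAs. On the log2 scale its level was shifted from the mean of newborn replicates 1 and 2 toward day 180 for 176 of 215 miRNAs. It was nearer to the day 180 mean for 148 and lay past that mean for 98. Among the 48 calls it was shifted for 42, nearer to day 180 for 24 and past the day 180 mean for 2. The 48 miRNAs tested in both fits and called only without it comprised 24 rises and 24 falls. For 47 of them this library was nearer to the day 180 mean, and for 30 it lay past that mean. Both sets were chosen by calls made with or without this library, so its position in them follows in part from that choice. By lowest p, the added rises of at least 50 normalised CPM were miR-142-5p, miR-451, miR-101, miR-148a-3p and miR-7. The added falls were miR-181a, miR-1306-5p, miR-30d, miR-423-3p and miR-1307. miR-148a-3p, which targets DNMT1, was at 6379, 12300 and 71197 normalised CPM at birth and 178696, 142421 and 54604 at day 180 (2.06 ± 0.80, edgeR adjusted p = 0.0799, and 3.72 ± 0.73 without newborn replicate 3, adjusted p = 0.000802). miR-101, which targets EZH2, was at 24.2, 20.4 and 221 at birth and 208, 243 and 184 at day 180. miR-423-3p went the other way, at 55558, 42691 and 5263 at birth and 17050, 12237 and 14564 at day 180. In each of these 3, newborn replicate 3 was within or beyond the range of day 180. The share of counts held by miR-451, 7.47% and 8.97% in newborn replicates 1 and 2, was 59.4% in replicate 3 and 37.0% to 49.3% at day 180. Its part in these differences was not tested.

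**Figure D4:**
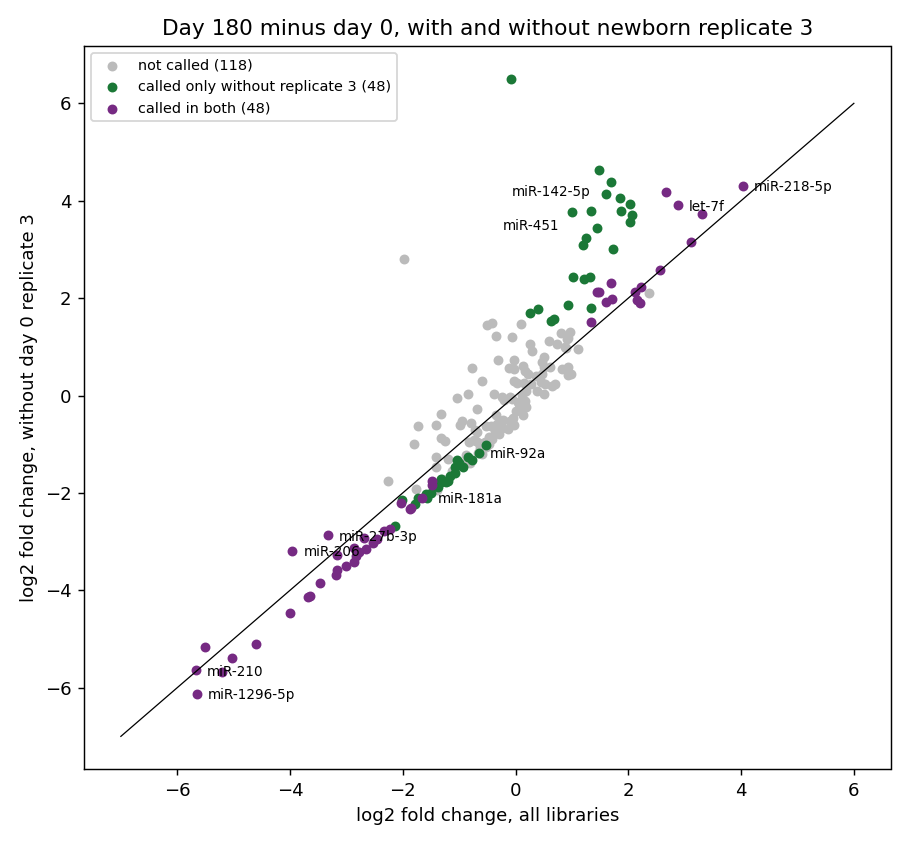
Log2 fold change from day 0 to day 180 without newborn replicate 3 (vertical axis) against all libraries (horizontal axis) for miRNAs tested in both fits, with the line of equal values. Colours mark the 48 miRNAs called in both fits and the 48 called only without replicate 3, among them miR-142-5p at 4.14 on the vertical and 1.60 on the horizontal axis.

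Levels at the other ages are given as description of the called miRNAs. These ages are set against the same newborn libraries, so they are no independent support. The called miRNAs were chosen for a difference between day 0 and day 180, so the counts below follow in part from that choice. They were not set beside all tested miRNAs. Of the 16 rises, 11 had a day 30 mean nearer on the log2 scale to day 180 than to day 0, and 14 had one at day 60. Of the 32 falls, 29 were nearer to day 180 at day 30 and 31 at day 60. miR-210 was among the 3 exceptions at day 30, with means of 42.1 ± 21.0 normalised CPM (day 30), 12.8 ± 5.76 (60), 2.48 ± 0.592 (180) and 1.66 ± 1.58 (360), each with SD and n = 3. miR-10a-5p and miR-99a were the 2 rises nearer to birth at day 60. miR-10a-5p averaged 292 ± 113 normalised CPM at 30 days, 198 ± 99.3 at 60 days, 588 ± 236 at 180 days and 714 ± 268 at 360 days (SD, n = 3). let-7i passed through 53982 ± 39635 at day 30 and 92525 ± 4499 at day 60 to 142653 ± 16333 at day 180 (SD, n = 3). miR-29a, in contrast, had its highest mean at day 60, at 934 ± 131, beside 684 ± 158 at day 180 (SD, n = 3). At day 360, miR-27b-3p (3596 ± 2432, SD, n = 3) and miR-206 (12.7 ± 6.68) were 2 of the 3 falls nearer to the level at birth.

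**Figure D5:**
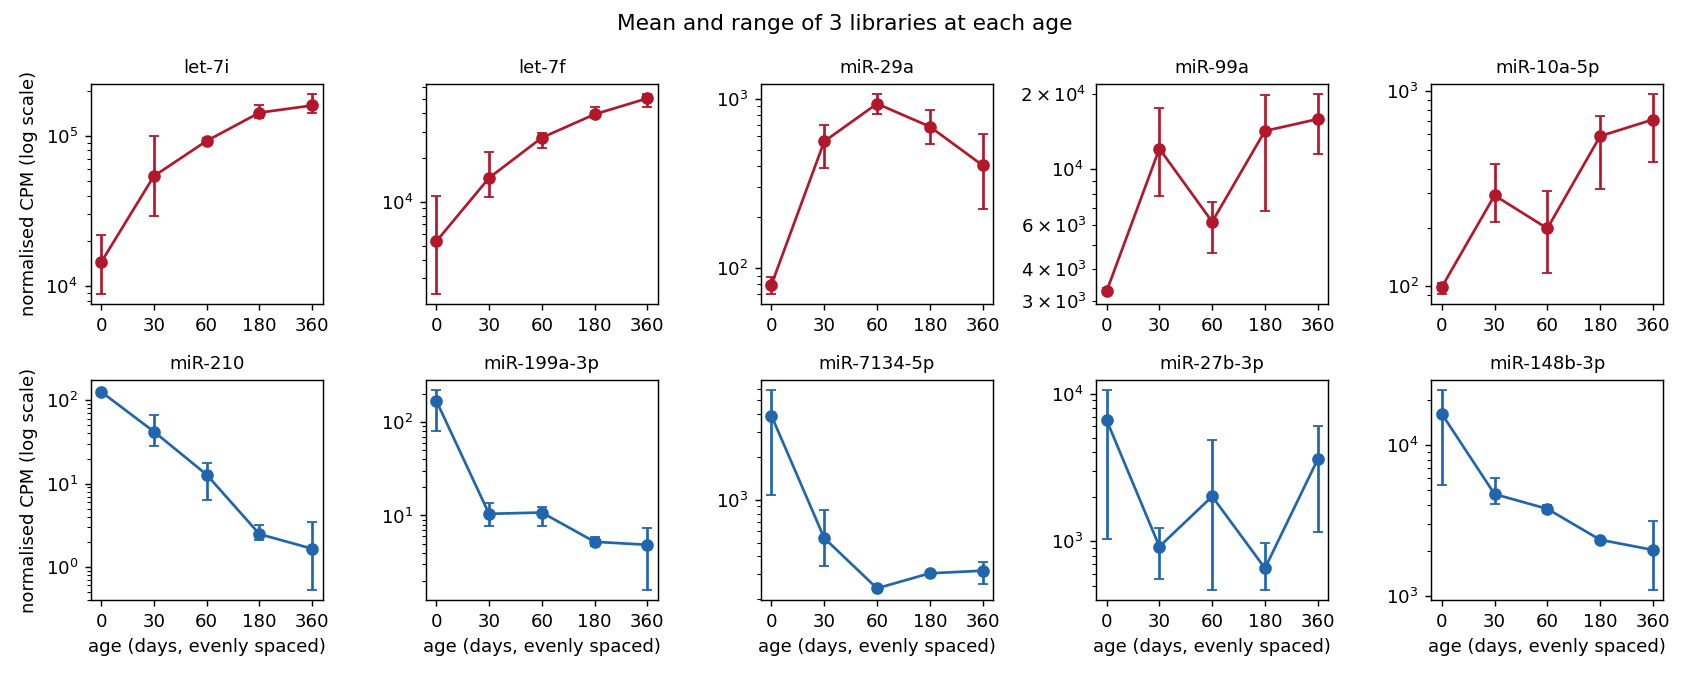
Normalised CPM (vertical log axis) of 5 called rises (top) and 5 called falls (bottom) at the 5 ages, evenly spaced. Points are means and bars the range of 3 libraries. miR-210 has a lower mean at each successive age, while miR-99a has a lower mean at day 60 than at days 30 and 180.

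miRNAs that neighbour each other often come from 1 transcript. In RefSeq's Sscrofa11.1 annotation, 209 of the 215 tested miRNAs matched a miRNA gene, and 28 groups with starts within 10 kb of each other held at least 2 tested hairpins. In the group of miR-199a and miR-214 all 3 tested miRNAs fell, and in that of miR-29a and miR-29b both rose. The group of let-7a, let-7d and let-7f had 4 positive log2 fold changes of 4, with 2 calls. let-7c and miR-99a, also neighbours, differed in their values (-0.04 ± 0.48 and 2.12 ± 0.45). In the group of miR-23a and miR-27a, miR-24-1-5p was called higher (1.61). There miR-23a (-0.24), miR-24-3p (-0.95) and miR-27a (-0.73) were negative and not called. miR-30c-3p was called lower (-3.16) beside a positive, uncalled miR-30e-5p (1.22). The groups named here are a selection of the 28. let-7a, let-7f, miR-29b and miR-24-3p matched genes in more than 1 group. Both arms were tested for 35 hairpins. Of the 14 with at least 1 called arm, 11 had log2 fold changes of 1 sign in both arms, beside 21 of all 35. Both arms were called for miR-10a and miR-199a. Signs differed between the arms of miR-22, miR-339 and miR-7139, as for miR-339-5p (-2.69 ± 0.46) and miR-339-3p (0.00 ± 0.47).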

How the data were processed

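RNA was extracted from whole blood with a mirVana kit, per the labels' protocols. The authors deposited read counts and TPM values per mature miRNA, and the deposited counts were used for all tests but 1. The submitters' processing notes name CASAVA 1.8.2 and HISAT2 2.0.4. The counting tool was not given in the sources used here, nor were the miRNA annotation and genome build. Rows for miR-199b-3p and miR-9-1 repeat other rows and were left out.

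Counts were fitted with edgeR 4.0.16 in R 4.3.3 (TMM factors, quasi-likelihood test) over all 15 libraries, with 1 coefficient per age and a shared spread, and day 180 was contrasted with day 0. The filter asked for a minimum count of 10 and a total of 15. Each SE follows from the log2 fold change divided by the root of its F statistic. Alternatives used DESeq2 1.42.0 and limma 3.58.1, the latter on log2(TPM + 1) of the deposited TPM. The fits were tested on simulated data in which no library stood apart, so that check does not cover the effect of newborn replicate 3. No molecular identifiers are stated, so the floor of 3 counts (0.305 to 0.520 CPM per library) covers counting error only. miRNAs and lists were chosen with earlier results of these data known. Named were the largest rises and falls (up to 12 each, at least 50 normalised CPM at either age, no overlap), the 5 most abundant miRNAs, each called list member, the most abundant member of a list with no call, and the 5 of lowest p per direction called only without newborn replicate 3. Replicates left out in turn were refiltered and refitted. The result of 1 further list, its called member included, is not reported here.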

Additional observations from a re-analysis of the deposited data

How the results depend on the processing

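No called change reversed under any alternative tried. The number of calls, 48 (16 higher, 32 lower), was 74 (5 and 69) with library totals, 30 (9 and 21) with only the 6 libraries, 66 (7 and 59) with limma on TPM and 61 (24 and 37) with DESeq2. Leaving out 1 library at a time gave 34 to 104 calls, 9 to 40 higher and 23 to 64 lower. The total was lowest without newborn replicate 2 and highest without newborn replicate 3, and the lower calls were fewest without day 180 replicate 2. In these 6 runs 27 of the 48 calls were kept throughout and 21 were lost at least once. Library totals without newborn replicate 3, chosen after seeing the data, gave 130 calls (22 higher, 108 lower). The labels do not say whether replicate numbers pair the libraries. Deviations of same-numbered libraries correlated at 0.063, -0.37 and -0.22, beside -0.31 to 0.37 for different numbers. With 3 libraries per age, these values cannot tell whether the numbers pair animals. A fit with the replicate number as a block gave 47 calls (15 higher, 32 lower), 45 of them shared with the 48. Among the uncalled miRNAs recomputed under the alternatives, those named here by rule, 2 changed sign. The log2 fold change of miR-192 (0.11) was -0.55 with library totals, -0.12 with a filter of 10 CPM in 3 libraries, -0.20 with limma, and -0.29, -0.26 and -0.14 without newborn replicate 1, newborn replicate 2 and day 180 replicate 3, and 1.46 without newborn replicate 3. That of miR-26a (0.14) was -0.68 with library totals, -0.69 with limma and -0.72 with library totals without newborn replicate 3. The cause was not tested. With 3 libraries per age, and few counts at day 180 for many falls, the size of those falls is poorly fixed: 8 of the 32 had fewer than 3 day 180 libraries with 10 counts.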
